A study of Mus musculus with 28 samples.

Results

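The 10 genes described here make up the MYC, MAX and MXD network: Myc, Mycn and Mycl, Max, the 4 MXD genes Mxd1, Mxd3, Mxd4 and Mxi1, and the related genes Mnt and Mlx. They were chosen by name and matched by symbol to the Ensembl identifiers of the count tables, 10 of 56748 identifiers. The tables come from total RNA-seq, with ribosomal RNA removed, of 28 libraries from 2 mouse mammary epithelial lines. HC11 is an untransformed line that can be driven to make milk proteins, and 4T1 is a line from a mammary carcinoma. Treatment labels divide HC11 into 10 libraries with DOX alone and 10 with DOX plus DIP, and the 8 libraries of 4T1 carry DOX, so that all 3 groups carry the DOX label and no library lacks it. DOX and DIP are not written out in the labels. In HC11 work DIP commonly means dexamethasone, insulin and prolactin, the hormones that induce milk protein genes. No construct, dose, time or culture is named, and the series title speaks of an RNA antisense to ribosomal DNA. Each line is a single established line, and where libraries share a culture the p-values below measure only a technical spread.

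Library depth ran from 134117581 to 222065843 counts, at which 3 counts correspond to between 0.0135 and 0.0224 CPM (a library's counts scaled to a common total of 1e+06). The epithelial markers Epcam and Cdh1 were at 43.4 CPM or more in all 28 libraries, while Cldn7, a tight junction gene, was between 0.0356 and 0.407 CPM in HC11 and between 63.5 and 93.9 CPM in 4T1. The leukocyte markers Ptprc and Cd3e and the endothelial markers Kdr and Cdh5 did not exceed 0.0613 CPM in any library. Other markers of these cells were higher: Csf1r lay between 6.62 and 16.4 CPM, Cd68 between 1.60 and 12.4 CPM, and Pecam1 between 3.27 and 5.21 CPM in HC11 DOX, 0.227 and 1.53 CPM with DIP and 0.0906 and 0.292 CPM in 4T1. The 6 fibroblast markers summed to between 33.3 and 73.1 CPM in HC11 DOX, 9.39 and 15.6 CPM in 4T1 and 2.82 and 252 CPM with DIP. DIP libraries 8 and 10 stood apart. Their expression profiles lay at a root mean square log2 distance of 1.04 and 1.02 from the rest of the DIP group, against 0.328 to 0.601 for the other 8, and their Krt8, a keratin of luminal cells, was at 21.3 and 26.3 CPM against 78.3 to 206 CPM. Their fibroblast markers summed to 2.82 and 4.04 CPM, against 49.1 to 252 CPM in the other 8, and the part of these cells' markers in the results was not tested. In 4T1 libraries 1 and 2 the basal keratin Krt5 was at 64.8 and 95.5 CPM, against 10.8 to 25.2 CPM in the other 6. Results that rest on these libraries are given with and without them.

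MYC, MYCN and MYCL are transcription factors of the basic helix-loop-helix leucine zipper class that bind DNA as dimers with MAX, recruit histone acetyltransferases and raise genes of growth, nucleotide synthesis and ribosome production. The MXD proteins and MNT also pair with MAX and bind the same hexamer, CACGTG (the E-box), but recruit the SIN3 and histone deacetylase corepressor. MLX is a MAX-like protein that pairs with MXD1, MXD4 and MNT, and with the glucose-sensing factors MondoA and ChREBP. In the mammary gland MYC is known for driving proliferation in pregnancy, and in many cells MXD genes are known to be expressed as cells leave the cell cycle.

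The E-box is the sequence through which these proteins meet their targets, so the promoter windows of the members themselves were searched for it. The windows run from 250 bases before to 50 bases after a RefSeq start (GRCm38.p6), 300 bases each, and CACGTG reads the same on both strands. A window was given for 9 of the 10 members, and 4 of these 9 (44.4%) held the hexamer, against 2187 of 27025 genes (8.09%) in the whole table. The members with it were Max, Mxd4, Mnt and Mlx, while none of the windows of Mycn, Mycl, Mxd1, Mxd3 and Mxi1 held it. The 60 bases around each match are shown 5′ to 3′ on the gene's strand, with the hexamer in capitals, because these are the members whose own promoters carry the network's site.
Max: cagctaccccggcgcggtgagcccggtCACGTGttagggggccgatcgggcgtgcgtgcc
Mxd4: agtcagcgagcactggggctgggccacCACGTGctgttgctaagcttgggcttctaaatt
Mnt: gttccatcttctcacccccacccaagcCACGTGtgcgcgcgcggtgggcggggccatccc
Mlx: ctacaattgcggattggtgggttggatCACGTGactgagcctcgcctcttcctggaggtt
The Max stretch is chr12:76962219-76962278 on the minus strand, with the first C of the hexamer at position -3 from the start. Unlike for Mxd4, Mnt and Mlx, bases shortly after that start were found in no GENCODE transcript of the gene. The strand and start used for Max are therefore less sure. The Mxd4 stretch is chr5:34187897-34187956, also on the minus strand, with the hexamer at -219. The stretches of Mnt, chr11:74830774-74830833, and Mlx, chr11:101087223-101087282, lie on the plus strand with the hexamer at -123 and -40. A match in such a window is a description of sequence and not a measured binding site.

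The quasi-likelihood test of edgeR was used for all comparisons of counts, with p-values adjusted by Benjamini and Hochberg's method over all genes tested, and a gene is called, and said to rise or fall, at an adjusted p under 0.05. All adjusted p-values below are of that kind unless another tool is named. The comparison of DIP with no DIP in HC11 asked how the network differed once the DIP label was added, and the comparison of 4T1 with HC11 asked how it differed between a cancer line and an untransformed one. Both use the same 10 HC11 DOX libraries, so their fold changes are not independent of each other. With DIP, 6 of the 10 members rose, 2 fell and 2 were not called, while 45.5% of all 23829 genes tested were called, 24.5% higher and 21.0% lower. Groups did not overlap for 3 of the 10, against 11.4% of all genes. In 4T1, 4 members rose, 4 fell and 2 were not called, against 69.9% of 23875 genes called, 34.3% higher and 35.6% lower. With library size as the only scaling, the share of these calls that were higher went from 49.0% to 35.9%, and 3 members rose and 5 fell. There 6 of the 10 had groups that did not overlap, against 37.0% of all genes. Without DIP libraries 8 and 10, 6 members rose and 2 fell with DIP, Myc being no longer called and Mxi1 called in its place, with 52.4% of all genes called, 27.0% higher and 25.4% lower. The median log2 fold change of the 10 members was 0.57 with DIP and 0.15 in 4T1, and that of all genes tested 0.055 and -0.0095. All 10 passed the filter on low counts in each comparison. Against HC11 DOX, and against DIP further below, Mycn passed through the HC11 libraries alone where 4T1 was compared. It is among the members that fell and did not overlap in 4T1 against HC11 DOX. With no filter, 4 members again rose and 4 fell there, while of all 42922 genes 9322 rose and 11472 fell. In bulk RNA fewer cells of a type and less RNA per cell cannot be told apart.

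**Figure D1:**
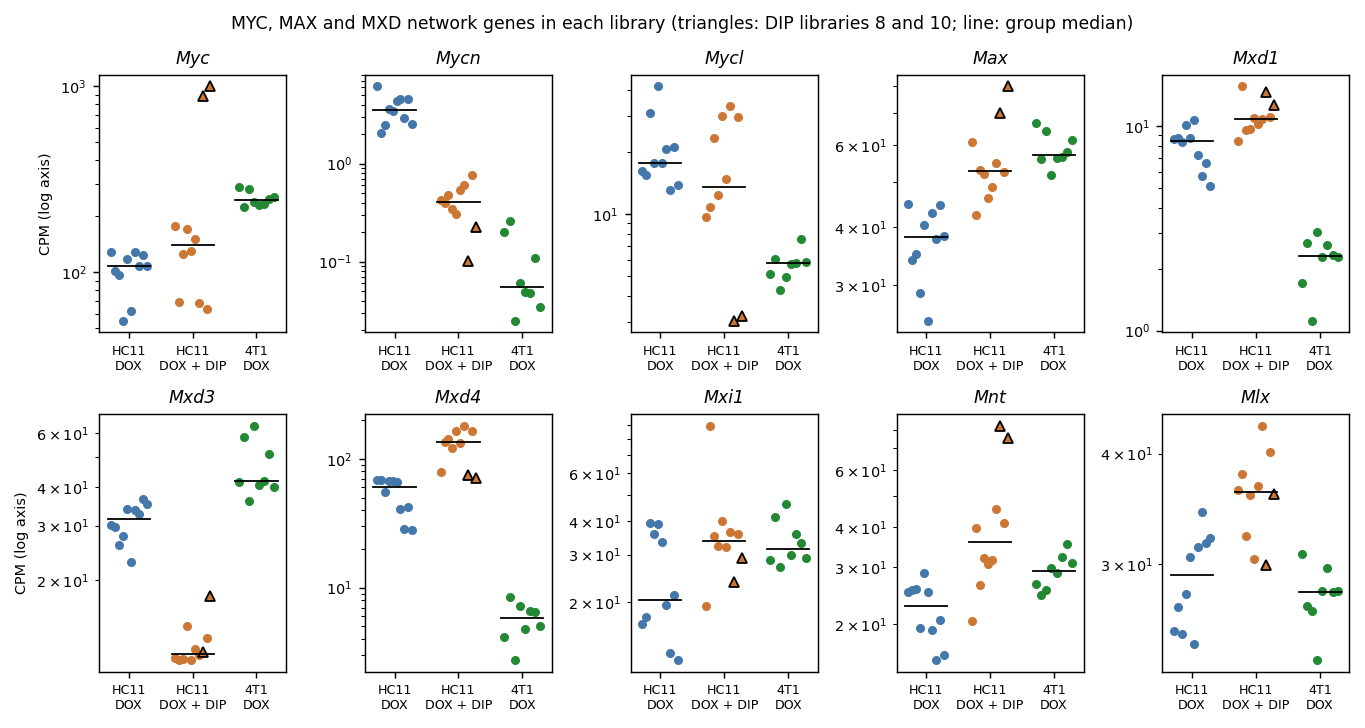
Level of each of the 10 members in CPM on a log axis, 1 point per library, for HC11 DOX (10 libraries), HC11 DOX + DIP (10, with triangles for libraries 8 and 10) and 4T1 DOX (8), with a line at the group median. Myc in DIP libraries 8 and 10 (887 and 1000.3 CPM) lies far above the other DIP libraries, and the Mycn median goes from 3.50 CPM in HC11 DOX to 0.411 with DIP and 0.0549 in 4T1.

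Myc (ENSMUSG00000022346), the family member expressed most widely, had the widest range of the 10 within the DIP group. In HC11 DOX it ran from 55.0 through a median of 109 to 129 CPM, with DIP from 63.2 through 141 to 1000.3 CPM, and in 4T1 from 225 through 243 to 289 CPM. The DIP group spanned the DOX range and went far beyond it in libraries 8 and 10, at 887 and 1000.3 CPM, while its other 8 libraries stayed between 63.2 and 179 CPM. Its lowest libraries were 9, 7 and 2, at 63.2, 68.8 and 69.1 CPM. Over all 10 libraries Myc rose 2.81-fold, from 103 ± 25.9 to 285 ± 351 CPM (SD, n = 10 each; log2 fold change 1.49 ± 0.48 SE, adjusted p = 0.0142 by edgeR). Without libraries 8 and 10 the log2 fold change was 0.22 ± 0.22 (adjusted p = 0.409 by edgeR), and the rise was not called by limma voom with all libraries either (0.78, adjusted p = 0.154). The call with DIP therefore rests on 2 libraries. Across the 8 others the level of Myc still varied more than that of most genes: its SD of log2 CPM was 0.63, larger than that of 94.4% of 10359 genes.

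In 4T1 all 8 libraries lay above all HC11 DOX libraries for Myc. The mean was 250 ± 23.7 CPM (SD, n = 8), 2.39-fold above HC11 DOX (log2 fold change 1.26 ± 0.14, adjusted p = 1.07e-07 by edgeR). The 4T1 libraries were also alike, with an SD of log2 CPM of 0.13, larger than that of 40.8% of the genes. Pvt1, the long noncoding RNA gene next to Myc, had a similar layout of groups. It ran from 5.50 through 7.24 to 8.31 CPM in HC11 DOX, from 6.16 through 16.7 to 52.2 CPM with DIP, and from 20.2 through 21.6 to 23.5 CPM in 4T1. DIP libraries 10 and 8 were again highest, at 52.2 and 40.3 CPM. Pvt1 rose 2.88-fold with DIP (log2 fold change 1.53 ± 0.31, adjusted p = 4.15e-04 by edgeR) and, unlike Myc, was still called without libraries 8 and 10 (0.97 ± 0.21, adjusted p = 7.75e-04). In 4T1 it was 2.97-fold above HC11 DOX with no overlap (1.57 ± 0.08, adjusted p = 8.47e-13 by edgeR).

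Mycn (ENSMUSG00000037169), the family member known from neural tissue and neuroblastoma, was low and fell in both comparisons. It lay between 2.06 and 6.16 CPM in HC11 DOX (median 3.50), between 0.102 and 0.765 CPM with DIP (median 0.411) and between 0.0250 and 0.263 CPM in 4T1 (median 0.0549). Neither of the other groups reached the lowest HC11 DOX library. With DIP the fall was 8.63-fold (log2 fold change -3.11 ± 0.29, adjusted p = 1.65e-08 by edgeR). In 4T1 the fitted level was 37.8-fold lower (-5.24 ± 0.42). Since Mycn passed the filter here through HC11 DOX, its p is given from the fit with no filter on low counts (-5.20 ± 0.42, adjusted p = 7.96e-10 by edgeR). The 4T1 libraries held only 4 to 42 counts each, the 2 highest being libraries 2 and 1, and without these 2 the fall was 66.9-fold (-6.06).

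Mycl (ENSMUSG00000028654) encodes the other family member and was called in 4T1 but not with DIP. It ran from 13.0 through 17.7 to 41.6 CPM in HC11 DOX, from 3.03 through 13.5 to 33.4 CPM with DIP and from 4.28 through 5.76 to 7.59 CPM in 4T1. The DIP values overlapped those of HC11 DOX and went below them, and the same libraries 8 and 10 that were highest for Myc were lowest for Mycl, at 3.03 and 3.21 CPM against 9.67 CPM or more in the other 8. With DIP the log2 fold change was -0.27 ± 0.37 (adjusted p = 0.582 by edgeR). In 4T1 Mycl fell 3.74-fold, with every library below HC11 DOX (-1.90 ± 0.21, adjusted p = 1.24e-07).

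Max (ENSMUSG00000059436), the partner that MYC and MXD proteins need to bind the E-box, rose in both comparisons. It ran from 25.2 through 38.0 to 44.7 CPM in HC11 DOX, from 42.5 through 52.6 to 80.1 CPM with DIP, and from 51.7 through 57.1 to 66.8 CPM in 4T1. DIP library 2 alone lay within the HC11 DOX range, and libraries 10 and 8 were the highest, at 80.1 and 70.1 CPM. The rise with DIP was 1.53-fold (log2 fold change 0.61 ± 0.12, adjusted p = 3.69e-04 by edgeR). In 4T1 it was 1.56-fold, with no overlap (0.64 ± 0.10, adjusted p = 9.12e-06).

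The 4 MXD genes, which encode repressors, did not move as one. Mxd4 (ENSMUSG00000037235) had the largest change of the 4 in 4T1. It ran from 28.2 through 60.6 to 68.2 CPM in HC11 DOX, from 71.6 through 134 to 182 CPM with DIP and from 2.74 through 5.76 to 8.42 CPM in 4T1, so that the 3 groups did not overlap at all. Within HC11 DOX, libraries 8 and 10 were at 28.4 and 28.2 CPM and libraries 7 and 9 at 40.7 and 42.2 CPM, below the other 6. With DIP Mxd4 rose 2.42-fold (log2 fold change 1.27 ± 0.21, adjusted p = 4.99e-05 by edgeR), and of the 6 members that rose it was the one whose groups did not overlap. In 4T1 it fell 9.58-fold (-3.26 ± 0.25, adjusted p = 3.91e-10). An antisense gene, Gm42846, covers 6.06% of the exon bases of Mxd4, and it held 56636 counts over all libraries against 327542 for Mxd4.

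Mxd1 (ENSMUSG00000001156), the founding member of the family, had the same order of groups as Mxd4 at smaller size. It ran from 5.11 through 8.50 to 10.7 CPM in HC11 DOX, from 8.50 through 10.9 to 15.7 CPM with DIP and from 1.12 through 2.32 to 3.05 CPM in 4T1. HC11 groups overlapped over much of their range, and 4T1 lay below both. Mxd1 rose 1.44-fold with DIP (log2 fold change 0.53 ± 0.15, adjusted p = 0.00595 by edgeR) and fell 3.61-fold in 4T1 (-1.85 ± 0.19, adjusted p = 2.82e-08).

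Mxd3 (ENSMUSG00000021485), the member known to be expressed in dividing cells, went the other way in both comparisons. It ran from 22.8 through 31.4 to 36.5 CPM in HC11 DOX, from 11.0 through 11.5 to 17.8 CPM with DIP and from 36.2 through 41.8 to 63.3 CPM in 4T1. All 10 DIP libraries lay below all HC11 DOX libraries, and 4T1 overlapped HC11 DOX by a narrow margin. With DIP it fell 2.45-fold (log2 fold change -1.29 ± 0.11, adjusted p = 2.82e-09 by edgeR), and in 4T1 it rose 1.48-fold (0.57 ± 0.11, adjusted p = 8.24e-05). The mean log2 CPM of the markers of cycling cells moved with it, between 7.13 and 7.92 in HC11 DOX, between 1.39 and 4.29 with DIP and between 7.99 and 8.18 in 4T1, and their part in the difference was not tested. Prelid1, on the opposite strand, shares 105 bases (4.43%) with the exons of Mxd3 and held 1415629 counts against 135566, so reads from the shared stretch may be assigned to either.

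Mxi1 (ENSMUSG00000025025), which encodes the repressor MXI1, was not called in either comparison. It ran from 12.2 through 20.4 to 39.3 CPM in HC11 DOX, from 19.4 through 33.7 to 89.9 CPM with DIP and from 27.0 through 31.5 to 46.3 CPM in 4T1. HC11 DOX was split, with libraries 3 to 6 between 33.3 and 39.3 CPM and the other 6 at 21.3 CPM or less, and its SD of log2 CPM of 0.65 was larger than that of 94.0% of the genes. In the DIP group library 2 stood alone at 89.9 CPM, above 39.8 CPM in the next. With DIP the log2 fold change was 0.61 ± 0.27 (adjusted p = 0.0703 by edgeR). Leaving out DIP libraries 8 and 10 brought it past the threshold (adjusted p = 0.0425), as did DESeq2 (adjusted p = 0.0439), so the data do not settle its call. In 4T1 it was 0.42 ± 0.23 (adjusted p = 0.110 by edgeR), and limma voom called it higher (adjusted p = 0.0404).

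Mnt (ENSMUSG00000000282), a MAX partner that antagonises MYC and is expressed in both resting and dividing cells, rose with DIP. It ran from 15.5 through 22.9 to 28.8 CPM in HC11 DOX, from 20.5 through 35.9 to 82.4 CPM with DIP and from 24.6 through 29.3 to 35.5 CPM in 4T1. Libraries 8 and 10 of the DIP group were highest here too, at 82.4 and 75.4 CPM, against at most 45.3 CPM in the others. The rise was 1.95-fold (log2 fold change 0.96 ± 0.22, adjusted p = 0.00121 by edgeR) and held without these libraries, at a smaller size (0.61, adjusted p = 0.00233). In 4T1 Mnt was called higher (0.38 ± 0.12, adjusted p = 0.0109 by edgeR), but not in a fit of all 3 groups (adjusted p = 0.105) or with library size as the only scaling (adjusted p = 0.297).

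Mlx (ENSMUSG00000017801) varied least. It ran from 24.3 through 29.2 to 34.3 CPM in HC11 DOX, from 29.9 through 36.2 to 43.0 CPM with DIP and from 23.4 through 27.9 to 30.8 CPM in 4T1. With DIP it rose 1.26-fold (log2 fold change 0.33 ± 0.09, adjusted p = 0.00412 by edgeR), and its SD of log2 CPM within the DIP group, 0.17, was larger than that of only 7.09% of the genes. In 4T1 the log2 fold change was -0.08 ± 0.08 (adjusted p = 0.344), and with library size as the only scaling Mlx was called lower (-0.31, adjusted p = 0.00100). Psmc3ip, on the opposite strand, shares 385 bases (19.3%) of the exons of Mlx and held 81698 counts against 150029, so the level of Mlx is uncertain to that extent.

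**Figure D2:**
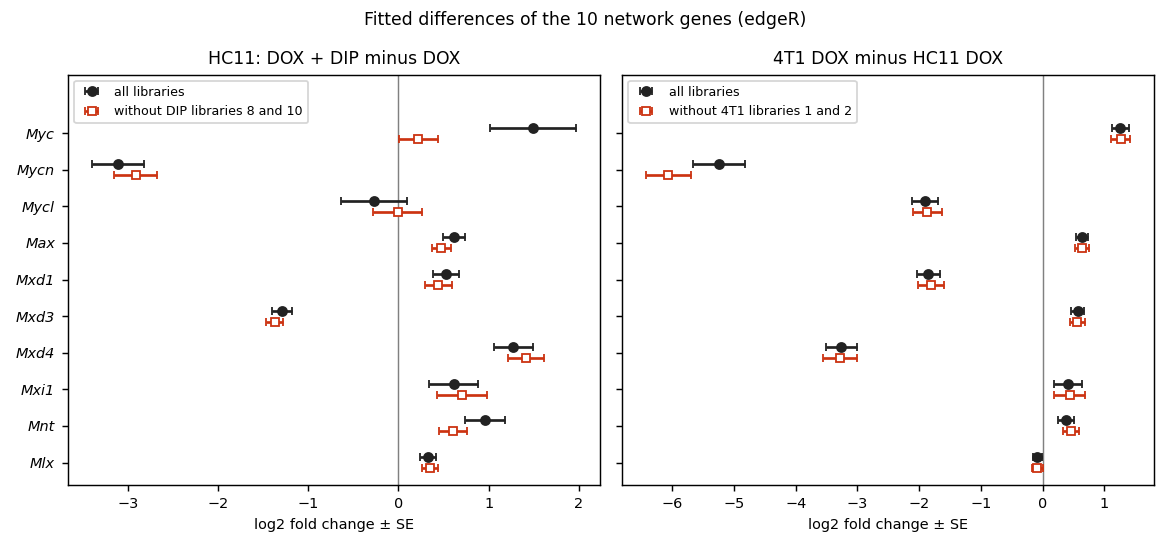
Log2 fold change of each member with its standard error, with DIP in HC11 (left) and in 4T1 against HC11 DOX (right), for all libraries and without DIP libraries 8 and 10 or 4T1 libraries 1 and 2. The change of Myc with DIP drops from 1.49 to 0.22 without libraries 8 and 10, whereas Mycn, Mxd3 and Mxd4 keep their direction and call.

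The order of the 3 groups differed between members. Placing 4T1 against HC11 with DIP in a further comparison (73.8% of 24132 genes called, 35.9% higher and 37.9% lower in 4T1, and 39.6% without overlap) ranked Mxd1 and Mxd4 highest with DIP, then HC11 DOX, then 4T1, with every step called. Mxd3 had the reverse order of the ends, 4T1 above HC11 DOX above DIP, again with every step called. Mycn went from HC11 DOX down to DIP. Its mean was lower again in 4T1 (0.0985 against 0.419 CPM with DIP), a step for which it passed the filter through the DIP libraries alone. For Myc the means with DIP and in 4T1 did not differ beyond their spread (log2 fold change of 4T1 against DIP -0.17 ± 0.51, adjusted p = 0.779 by edgeR), but without DIP libraries 8 and 10 4T1 was higher (1.04 ± 0.20, adjusted p = 1.10e-04). The neighbours not told apart were DIP and 4T1 for Max, Mnt and Mxi1, HC11 DOX and DIP for Mycl, and HC11 DOX and 4T1 for Mlx and Mxi1. For Mnt the step from DIP to 4T1 (-0.51, adjusted p = 0.0541 by edgeR) was called by DESeq2 (adjusted p = 0.0151).

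To compare the members with each other, levels were divided by the union exon length of each gene (CPM per kilobase). On that scale the 3 MYC genes summed to 44.2 ± 10.2 CPM per kilobase in HC11 DOX (SD, n = 10), 109 ± 127 with DIP (49.3 ± 16.1 over the 8 libraries other than 8 and 10) and 93.3 ± 8.63 in 4T1 (n = 8). The 4 MXD genes summed to 24.1 ± 2.63, 27.3 ± 6.01 and 25.6 ± 5.31. The summed MXD level therefore differed between groups by less than the largest SD within them, while its makeup did not stay the same. Mxd3 was 54.9 ± 11.0% of the MXD sum in HC11 DOX, 20.3 ± 6.67% with DIP and 76.8 ± 1.53% in 4T1. Mxd4 was 25.7 ± 6.65%, 54.1 ± 8.86% and 2.58 ± 0.513%. On this scale the main MXD transcript was thus Mxd4 with DIP and Mxd3 in the other groups. In HC11 DOX that ranking rests on the union exon lengths, 8483 bases for Mxd4 and 2369 for Mxd3. In CPM, Mxd4 was the higher of these 2 there as well (53.2 against 30.8). Mxi1 took 14.8%, 19.4% and 19.4% and Mxd1 4.68%, 6.15% and 1.25%. Within the MYC genes Myc was 85.4%, 90.0% and 98.4% of the sum.

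The ratio of the MYC sum to the MXD sum ran from 0.977 through 1.998 to 2.34 in HC11 DOX, from 0.787 through 2.03 to 17.0 with DIP and from 2.56 through 3.72 to 5.30 in 4T1. Every 4T1 library lay above every HC11 DOX library. In the DIP group libraries 8 and 10 were at 17.0 and 16.8, and the other 8 lay between 0.787 and 3.78, on both sides of the HC11 DOX values. The ratio of Myc to Max was 3.63 ± 0.437 in HC11 DOX, 5.797 ± 5.81 with DIP (3.08 ± 1.13 without libraries 8 and 10) and 5.63 ± 0.258 in 4T1. These are ratios of transcripts, and no protein was measured.

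**Figure D3:**
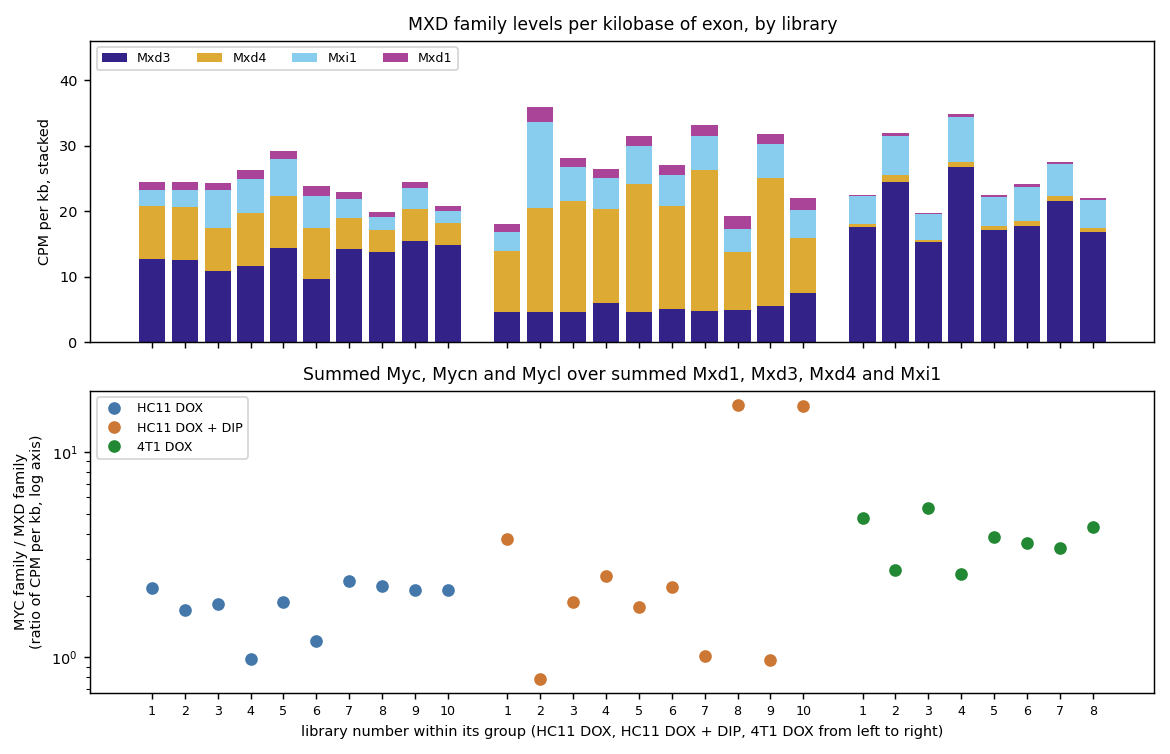
Top, levels of the 4 MXD genes in CPM per kilobase of exon, stacked by gene for each of the 28 libraries; bottom, the ratio of the summed MYC genes to the summed MXD genes in the same libraries, on a log axis. The bars change from mostly Mxd3 in HC11 DOX to mostly Mxd4 with DIP and mostly Mxd3 in 4T1, and the ratio is highest in DIP libraries 8 and 10 (17.0 and 16.8).

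Other proteins of the network act beside MAX and MLX. Mga, whose protein pairs with MAX, was at 44.7 ± 13.8 CPM in HC11 DOX, 72.9 ± 46.7 with DIP and 19.6 ± 2.67 in 4T1. Its log2 fold change with DIP was 0.73 ± 0.31 (adjusted p = 0.0597 by edgeR, 0.0392 by DESeq2), with libraries 8 and 10 at 181 and 122 CPM against at most 84.9 CPM in the others, and it fell 2.31-fold in 4T1 (-1.21 ± 0.21, adjusted p = 3.98e-05). Mlxip, which encodes MondoA, stood at 57.3 ± 9.19 and 56.0 ± 14.1 CPM in the HC11 groups (adjusted p = 0.956) and fell 1.91-fold in 4T1, to 30.5 ± 4.22 CPM (adjusted p = 3.11e-07). Mlxipl, which encodes ChREBP, was close to the counting floor, between 0.0214 and 0.724 CPM in HC11 DOX, between 0.129 and 0.643 CPM with DIP and between 0 and 0.0375 CPM in 4T1.

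Of 14 genes of the SIN3 and histone deacetylase corepressor, through which MXD proteins and MNT act, 6 fell with DIP by edgeR and 0 rose (median log2 fold change -0.20). At an unadjusted p under 0.05 2 rose, and DESeq2 called 1 and limma voom 0 higher. Of all genes 21.0% fell. Hdac1, a deacetylase of the complex, fell 1.58-fold, from 75.6 ± 7.55 to 47.1 ± 1.66 CPM with no overlap (adjusted p = 8.18e-08 by edgeR). Sin3a, the scaffold that MXD proteins bind, fell 1.30-fold, from 82.8 ± 13.7 to 62.9 ± 10.6 CPM (adjusted p = 0.0111). In 4T1, 4 of the 14 rose and 5 fell (median 0.061), beside 34.3% and 35.6% of all genes. With library size as the only scaling 3 rose and 8 fell, while of all 23875 genes 5964 rose and 10661 fell. Sin3a was lower in 4T1 too (55.6 ± 4.23 CPM, log2 fold change -0.60 ± 0.10, adjusted p = 1.43e-05). Of 15 coactivators of MYC 1 rose and 3 fell with DIP, beside 24.5% of all genes higher and 21.0% lower. Without DIP libraries 8 and 10 the counts were 0 and 8, beside 27.0% and 25.4%. In 4T1 7 rose and 6 fell, beside 34.3% and 35.6% of all genes. With library size as the only scaling 4 rose and 7 fell, beside the shift of all genes just given. Ruvbl2, an ATPase that MYC recruits, fell 1.62-fold with DIP and rose 1.74-fold in 4T1. Kat2a, a histone acetyltransferase, fell 1.60-fold with DIP and rose 1.32-fold in 4T1, not called there with library size as the only scaling (0.18, adjusted p = 0.129). Of 4 genes of MIZ1 and its partners, through which MYC represses genes, 0 were called with DIP by edgeR, limma voom or DESeq2. At an unadjusted p under 0.05 there were also 0, while 45.5% of all genes were called. In 4T1 3 of the 4 fell, beside 35.6% of all genes. That count was 2 by limma voom and without 4T1 libraries 1 and 2, and 4 with upper quartile or library size scaling. Zbtb17, which encodes MIZ1, was at 25.5 ± 2.43, 24.4 ± 3.58 and 23.3 ± 1.48 CPM.

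Among 18 genes that set the stability of the MYC protein, 4 rose and 6 fell with DIP, beside 24.5% and 21.0% of all genes. Plk1 and Aurka, mitotic kinases that also stabilise MYC proteins, fell 25.9-fold and 17.7-fold, from 123 ± 22.4 to 4.67 ± 2.42 CPM and from 89.9 ± 18.1 to 5.02 ± 2.80 CPM. Cip2a, an inhibitor of the phosphatase PP2A, fell 14.5-fold, from 78.1 ± 31.7 to 5.33 ± 3.11 CPM. All 3 are also genes of dividing cells, and the markers of cycling cells moved with them as given above. Fbxw7, the ubiquitin ligase subunit that marks phosphorylated MYC for destruction, rose 1.23-fold with DIP (adjusted p = 0.00974 by edgeR) and 1.26-fold in 4T1 (adjusted p = 7.43e-04), the latter not called with library size as the only scaling (0.10, adjusted p = 0.306). Gsk3b, the kinase that prepares MYC for FBXW7, rose 1.41-fold with DIP and fell 2.90-fold in 4T1. In 4T1 8 genes of the list rose and 6 fell, beside 34.3% and 35.6% of all genes. With library size as the only scaling these counts were 2 and 8, while of all 23875 genes 5964 rose and 10661 fell.

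Genes known to be activated by MYC were summarised in a list of 40. With DIP 14 of them fell and 0 rose (median log2 fold change -0.33). None was higher at an unadjusted p under 0.05 (0 of 40 by edgeR, limma voom and DESeq2). Leaving out DIP libraries 8 and 10, 26 fell and 0 rose (median -0.62). The 14 fell in a comparison in which 21.0% of all genes tested fell. The markers of cycling cells were lower with DIP too, as given above, and their part in these falls was not tested. Myc itself was not called lower with DIP, with or without libraries 8 and 10. E2f2, an activator of the cell cycle, fell 6.62-fold, Shmt2, an enzyme of mitochondrial one-carbon metabolism, 2.61-fold, and Cad, which starts pyrimidine synthesis, 2.46-fold. Odc1, which makes polyamines, fell 1.48-fold (adjusted p = 0.0377 by edgeR), but was not called with DESeq2 size factors (adjusted p = 0.0534) or upper quartile scaling (adjusted p = 0.0655). Ncl, the nucleolar protein nucleolin, was not called with all libraries (log2 fold change -0.53 ± 0.25, adjusted p = 0.0983 by edgeR). Ncl was called lower without DIP libraries 8 and 10 (-0.68 ± 0.27, adjusted p = 0.0442 by edgeR). The fit of all 3 groups called it lower too (adjusted p = 0.0463), so the data do not settle its call. In 4T1 30 of the 40 rose and 3 fell (median 0.73), where 34.3% of all genes rose. With library size as the only scaling, 25 rose and 3 fell, and in the fit of all 3 groups 24 and 3.

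Odc1 ran from 80.0 through 119 to 158 CPM in HC11 DOX, from 26.6 through 63.8 to 155 CPM with DIP and from 729 through 799 to 1026 CPM in 4T1. It rose 7.36-fold in 4T1 (log2 fold change 2.88 ± 0.13, adjusted p = 1.78e-13 by edgeR). Apex1, a DNA repair enzyme, rose 3.07-fold, from 60.2 ± 20.1 to 187 ± 11.2 CPM, and Ncl 2.02-fold, from 1109 ± 439 to 2254 ± 201 CPM. Cad rose 1.67-fold. E2f2 went against the list and fell 4.51-fold in 4T1.

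Genes known to be repressed by MYC were summarised in a list of 14. With DIP 6 rose and 1 fell (median 0.65 on the log2 scale), beside 24.5% of all genes higher and 21.0% lower. Leaving out libraries 8 and 10, 9 rose and 1 fell, beside 27.0% and 25.4%. Gadd45a, a stress gene that arrests the cell cycle, rose 6.62-fold, the secreted chaperone Clu 3.07-fold, and Cdkn2b, an inhibitor of cyclin D kinases, 1.97-fold. Thbs1, which encodes thrombospondin, was the 1 that fell, 4.10-fold. Cdkn1a, the inhibitor p21, was at 56.1 ± 15.6 and 67.8 ± 27.9 CPM and was not called with all libraries (adjusted p = 0.359 by edgeR). Without DIP libraries 8 and 10 Cdkn1a was called higher (log2 fold change 0.50 ± 0.18, adjusted p = 0.0232 by edgeR). In 4T1 4 rose and 10 fell (median -2.43), beside 34.3% and 35.6% of all genes. Cdkn1a fell 6.25-fold to 9.12 ± 1.30 CPM, Cdkn2b 58.6-fold, from 14.3 ± 8.11 to 0.250 ± 0.253 CPM, and the growth-arrest gene Gas1 60.0-fold, from 58.5 ± 16.3 to 1.00 ± 1.02 CPM. Clu and Gadd45a rose in 4T1 as well, 4.07-fold and 4.22-fold.

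Within the groups the summed targets can be read library by library, as a description. The mean log2 CPM of the activated list ran from 6.24 to 7.33 in HC11 DOX, and its lowest libraries, 6 and 4 at 6.24 and 6.25, were those with the least Myc (62.0 and 55.0 CPM). Its highest, 8 and 10 at 7.33 and 7.27, had 109 CPM of Myc each, the group's median, and library 1 with the most Myc (129 CPM) was at 6.89. With DIP its lowest libraries were 2, 9 and 7 at 5.70, 5.99 and 6.04, again the 3 with the least Myc, and its highest were 10 and 8 at 7.08 and 6.92, against 6.65 or less in the others. The repressed list was lowest in the same libraries 8 and 10, at 2.91 and 3.04, against 3.70 to 4.67 in the other 8. In 4T1 the activated list lay between 7.37 and 7.75 and the repressed list between 1.41 and 2.55. DIP libraries 8 and 10 also differed from the rest in their keratins, as given above, and the part of this difference was not tested.

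**Figure D4:**
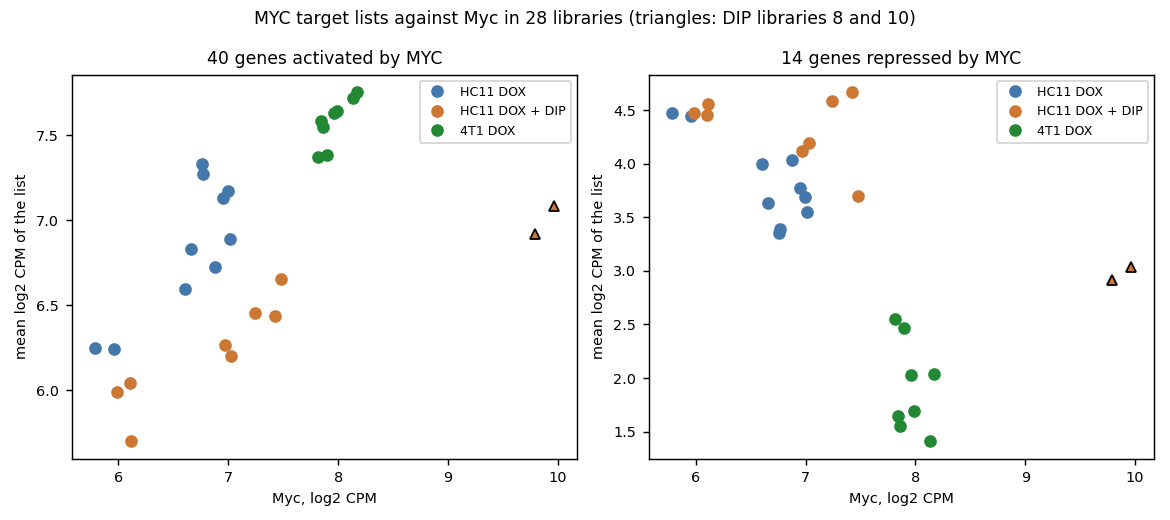
Mean log2 CPM of 40 genes known to be activated by MYC (left) and 14 known to be repressed (right) against log2 CPM of Myc, 1 point per library, coloured by group, with triangles for DIP libraries 8 and 10. DIP libraries 8 and 10 (6.92 and 7.08 on the left, 2.91 and 3.04 on the right) lie at the right edge of the Myc axis, and 4T1 lies highest for the activated and lowest for the repressed genes.

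MLX also acts with MondoA and ChREBP on glucose-responsive genes. Of 4 such genes tested, of 5 listed, 3 rose with DIP and 0 fell, beside 24.5% of all genes higher and 21.0% lower. By limma voom 2 rose. By limma voom and DESeq2 0 fell as well, and 0 fell at an unadjusted p under 0.05 by edgeR. Txnip, an arrestin-like protein that limits glucose uptake, ran from 19.4 through 48.4 to 115 CPM in HC11 DOX, from 12.2 through 206 to 592 CPM with DIP and from 2.67 through 7.99 to 11.5 CPM in 4T1. It rose 5.13-fold with DIP (log2 fold change 2.36 ± 0.64, adjusted p = 0.00478 by edgeR), a call that limma voom did not make (adjusted p = 0.0833), and fell 6.74-fold in 4T1. Arrdc4, its paralogue, rose 3.11-fold with no overlap (1.64 ± 0.29, adjusted p = 8.41e-05) and fell 20.9-fold in 4T1 (-4.38 ± 0.26, adjusted p = 1.02e-11). Khk, the fructose kinase, rose 2.21-fold with DIP and 2.41-fold in 4T1. In 4T1 2 of the 4 rose and 2 fell, beside 34.3% and 35.6% of all genes. The other rise was Rgs16, which was picked out after its values were seen. The count that rose in 4T1 therefore cannot be read against the share of all genes.

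For the 6 members whose group means of log2 CPM spanned at least 1, the genes with the most similar profile over all 28 libraries were sought among 10350 genes, by the root mean square difference of centred log2 CPM. Mxd3 had the closest neighbours, Nmral1 (0.15), Txn1 (0.17), which encodes thioredoxin, and Haus1 (0.22), a subunit of the augmin complex of the mitotic spindle. Nmral1 had means of 20.3, 8.87 and 31.8 CPM in HC11 DOX, DIP and 4T1. Mxd1 was closest to Zxdc, Zfp316 and Natd1 (0.28 to 0.30), Mycl to Atp13a2, Nectin1 and Pik3r2 (0.36 to 0.38), and Myc to Smn1, Eif6 and Prpf3 (0.35 to 0.40). The SMN1 protein assembles spliceosomal particles, EIF6 matures the large ribosomal subunit and PRPF3 is a splicing factor. Mxd4 was closest to Tcp11l2, Grhl1 and the clock gene Per2 (0.43 to 0.51), and Mycn to Ly6a, Ngef and Nkd2 (0.63 to 0.81). These distances largely measure the difference between the 3 groups, which all genes share.

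The promoter hexamer can be set beside the calls as a description. All 4 members that hold CACGTG in the searched window rose with DIP. Of the members whose window lacks it, Mxd1 rose too, Mycn and Mxd3 fell, and Mycl and Mxi1 were not called. Myc, which has no window, rose when all libraries were used. In 4T1 the 4 members with the hexamer were split, as Max and Mnt rose, Mxd4 fell and Mlx was not called. Of 1326 genes tested whose window holds the hexamer, 31.7% rose and 18.6% fell with DIP. Of 10889 genes whose window does not, the shares were 28.2% and 21.5%. In 4T1 the shares were 36.0% higher and 37.5% lower, against 33.9% and 39.8%. Of the lists, 9 of the 30 MYC-activated genes that have a window (30%) and 0 of the 8 MYC-repressed genes held the hexamer. Of all 27025 genes with a window 8.09% held it, a share at which 8 genes are too few to show a lack.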

How the data were processed

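Gene counts of 28 libraries were used, 1 deposited table each. The authors deposited whole read counts per Ensembl gene, with no normalisation apparent in the files. The submitters' processing notes name fastp 0.23.2, featureCounts 2.0.1 and the build GRCm39. The sources used here do not give an aligner or whether counting used strand. Per the labels' protocols, RNA was extracted with TRIzol and made into libraries with an NEBNext Ultra II kit after rRNA removal. In all 28 libraries more genes had a count of 2 than of 1, which paired mates counted singly would give. Symbols and exon lengths came from GENCODE vM21 (GRCm38), and promoter windows from RefSeq GRCm38.p6. Since the builds differ, the reference gave names, lengths and RefSeq sequence only.

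Groups followed the cell line and treatment labels. Libraries were numbered in accession order as names only. Fits used edgeR 4.0.16 (R 4.3.3): filterByExpr, TMM scaling and the quasi-likelihood test with robust estimation, on the 2 groups compared, with calls at an adjusted p under 0.05. For CPM, TMM factors were taken over the 28 libraries, with a prior count of 2 for log2 CPM. Biological coefficients of variation were 0.409 (DIP) and 0.301 (4T1). On simulated counts with 200 genes changed by known folds, the DIP fit (23829 genes) recovered 13.4%, 53.7% and 86.4% of genes changed 1.5-fold, 2-fold and 4-fold, with 6 false calls, and the 4T1 fit (23875 genes) 44.8%, 70.2% and 89.4%, also with 6. Apart from those 200, simulated libraries shared 1 mean per gene and were drawn independently. The false calls therefore do not cover data where many genes differ or where libraries stand apart together.

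Alternatives were DESeq2 size factors, upper quartile or library size scaling, no filter, a fit of all 3 groups, limma voom (3.58.1), DESeq2 (1.42.0), and leaving out libraries. The members and the gene lists were chosen with earlier results of these data known. All 10 members are named. Of each other list, genes defined by their role are named, plus the 3 called genes with the largest change at a mean log2 CPM of at least 2 in either comparison. Nearest profiles were sought as stated in the text.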

Additional observations from a re-analysis of the deposited data

Results flagged for a closer look

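In the 30 combinations of member and group, a library was flagged where its gap to the nearest other library, divided by the range of the group, passed Dixon's critical value. Chance gives about 1 flag in 20 groups, and 2 flags were found. Mxi1 in DIP library 2 was at 89.9 CPM, against 39.8 CPM in the next library. Mxd3 in DIP library 10 was at 17.8 CPM, against 14.2 CPM in the next. Myc in DIP libraries 8 and 10 was not flagged, because the 2 high libraries lie close to each other.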

How the results depend on the processing

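Over the 10 members and 3 comparisons, the alternatives gave 231 values on the same side of the threshold, 11 newly past it, 4 no longer past it and 4 of the opposite sign, none of the 4 a change of a called gene into a call of the other direction. Without DIP libraries 8 and 10, 2 members in place of 1 were higher in 4T1 than with DIP, Myc being added. Myc in 4T1 against DIP was 0.59 by limma voom and 1.04 without libraries 8 and 10, in place of -0.17. Max in that comparison was -0.056 with upper quartile and -0.20 with library size scaling, in place of 0.10. Leaving out each library in turn, Myc there ranged from -0.30 to 0.25 and Mxi1 from -0.20 to 0.12. Among the other named genes, Mlxip with DIP was 0.0050 with DESeq2 size factors and by DESeq2 and 0.017 with upper quartile scaling, in place of -0.012, Crebbp with DIP was -0.0017 without libraries 8 and 10, in place of 0.21, and in 4T1 Hdac1 was -0.14 and Cip2a -0.076 with library size scaling, in place of 0.085 and 0.16. Leaving out 1 library at a time, 6 to 7 members were higher and 2 lower with DIP, 4 to 5 higher and 4 lower in 4T1, and 1 higher and 5 to 6 lower in 4T1 against DIP. Genes called ranged from 10244 to 11438, from 16229 to 16916 and from 17132 to 18304. Library size scaling moved the median of all genes by -0.23 in 4T1 against HC11 DOX, and the share of calls that were higher from 49.0% to 35.9%. No paired analysis was possible because the labels give no replicate number, animal or culture, and library numbers are names only. Depth limits the precision of Mycn, Mlxipl and Cdkn2b in 4T1, where single libraries held few counts.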
